A study of Saccharomyces cerevisiae with 24 samples.

Results

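Starved cells of the splicing mutant hsh49::Q24P were compared with starved wild-type (WT) cells of budding yeast (Saccharomyces cerevisiae). The comparison takes 6 of the 24 libraries of the series, 3 of hsh49::Q24P and 3 of WT, chosen by their labels for genotype and growth phase. All were made from poly(A)-selected RNA, with a strand-preserving kit, after 48 h of culture, a stage the labels call starvation. The hsh49::Q24P cells are strain JPY2863, which carries a point mutation in HSH49, and the WT cells are strain JPY10H3. Both have the BY background and grew in synthetic defined medium with D-glucose, histidine, leucine, uracil and lysine. Each genotype is thus 1 strain, and the labels name the libraries of a group biological replicates without saying how the cultures were set up. A p-value thus measures the spread between libraries of a group, pooled in the main fit over all 24 libraries and not these 6 alone. Further groups were used where they bear on this comparison: hsh49::Q24P and WT in exponential growth (log phase), and starved cells of nam8D (strain JPY28H5) and mud1D (strain JPY28A8), which lack the splicing genes NAM8 and MUD1, all with 3 libraries. All 24 libraries carry the same batch label. The comparison asks which RNAs differ between the mutant and WT when nutrients run out.

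Hsh49 is a subunit of SF3b, the part of the U2 snRNP that grips the pre-mRNA around the branch point before the first step of splicing. It binds RNA through RNA recognition motifs and corresponds to SF3B4 in humans. Relatively few yeast genes have introns, and many of those encode ribosomal proteins, whose RNA makes up a large share of the pre-mRNA that the spliceosome handles. A yeast culture that runs out of glucose first consumes the ethanol it made, by respiration and gluconeogenesis, and then slows growth and builds up stress protection. The mutated codon lies near the start of the open reading frame. The first 120 bases of HSH49 (YOR319W), a gene of a single coding exon, are shown because they hold it. They were read from the R64 assembly at chrXV:912822-912941 on the plus strand, with codon 24, a glutamine codon in the reference, in capitals. The label of the mutation is Q24P, and the codon of the mutant strain is not given in the sources used here.
HSH49 coding start: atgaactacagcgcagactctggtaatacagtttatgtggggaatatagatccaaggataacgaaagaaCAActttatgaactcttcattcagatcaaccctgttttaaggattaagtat

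RNA of HSH49 itself was present in all libraries. It stood at 75.5, 94.9 and 74.1 TPM in hsh49::Q24P, against 63.4, 67.8 and 69.5 TPM in WT. The mutant libraries were all above WT, by 0.27 ± 0.09 on the log2(TPM + 1) scale (SE, adjusted p = 0.012 in limma), a difference too small to be called by the size threshold below and one that turned to -0.15 after scaling to spike-in RNAs. TPM of a gene cannot show which allele was transcribed.

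Values are in TPM, abundances of transcripts as shares of a constant library total, as deposited by the authors. They sum to between 999639 and 999881 per library over all 24 libraries, hold no read counts and so leave the sequencing depth unknown. The mutant libraries scattered more than WT: over genes, the SD among the 3 replicates had a median of 0.19 in hsh49::Q24P and 0.0883 in WT on the log2(TPM + 1) scale. Replicate 2 of hsh49::Q24P stood apart, with a correlation across genes of 0.9784 and 0.979 with replicates 1 and 3, which correlated at 0.9934 with each other, and of 0.9932 with replicate 3 of mud1D. Values without replicate 2 are therefore given beside genes that lose or gain a call and lists whose balance of calls changes. A close correlation with mud1D was not limited to replicate 2: replicate 3 of hsh49::Q24P correlated at 0.9932 with replicate 1 of mud1D. Replicates 1 and 3 of mud1D correlated at 0.9795 with each other. Scatter of cultures and of library preparation cannot be told apart. Spike-in RNAs, which the labels do not mention, summed to 14604.4, 22815.0 and 20762.0 TPM in hsh49::Q24P and to 13124.1, 13363.5 and 16276.9 TPM in WT. The genotypes also differ in strain markers. LEU2, which encodes isopropylmalate dehydrogenase of the leucine pathway, stood at 0.848, 0.828 and 1.1 TPM in hsh49::Q24P, against 4577, 3979 and 4890 TPM in WT. URA3, an enzyme of uracil synthesis, was listed at 0 in all 3 mutant libraries and stood at 8.18, 8.43 and 8.76 TPM in WT. HIS3 and LYS2 were listed at 0 in all 6 libraries, and MET17, of sulfur assimilation, stood at 868, 808 and 729 TPM in hsh49::Q24P, against 302, 282 and 351 TPM in WT. LEU2 was also low and URA3 listed at 0 in starved nam8D and mud1D cells, so no difference from WT below can be told apart from an effect of these marker differences. The 5 markers of mating type a, such as the pheromone gene MFA1, summed to between 228.5 and 279.8 TPM in hsh49::Q24P and between 475.1 and 524.4 TPM in WT. The 4 markers of mating type alpha summed to between 10.99 and 14.75 TPM in hsh49::Q24P and between 34.5 and 42.25 TPM in WT. Both genotypes thus carried the RNA pattern of mating type a, and among the alpha markers the alpha-factor gene MF(ALPHA)1 stood at 0.8001, 0.8675 and 0.641 TPM in hsh49::Q24P, against 9.652, 7.367 and 12.62 TPM in WT, a difference whose source was not tested.

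Of 6449 genes tested, 254 were called higher (3.94%) and 478 lower (7.41%) in hsh49::Q24P than in WT. Calls needed both an adjusted p under 0.05 in limma and a log2(TPM + 1) difference whose size was 1 or more. Without the size threshold 1621 genes passed as higher and 2266 as lower. The median gene stood at -0.086, and median centring of the libraries moved the split to 345 higher and 379 lower, quantile normalization to 332 and 354, and scaling to the spike-in RNAs to 99 and 1110, with the median gene at -0.473. Medians of gene groups are therefore given relative to the median gene. The sign of a log2 difference is hsh49::Q24P minus WT, and it is given with its SE. In bulk RNA, a smaller share of cells that express a gene and less RNA per cell cannot be told apart.

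**Figure D1:**
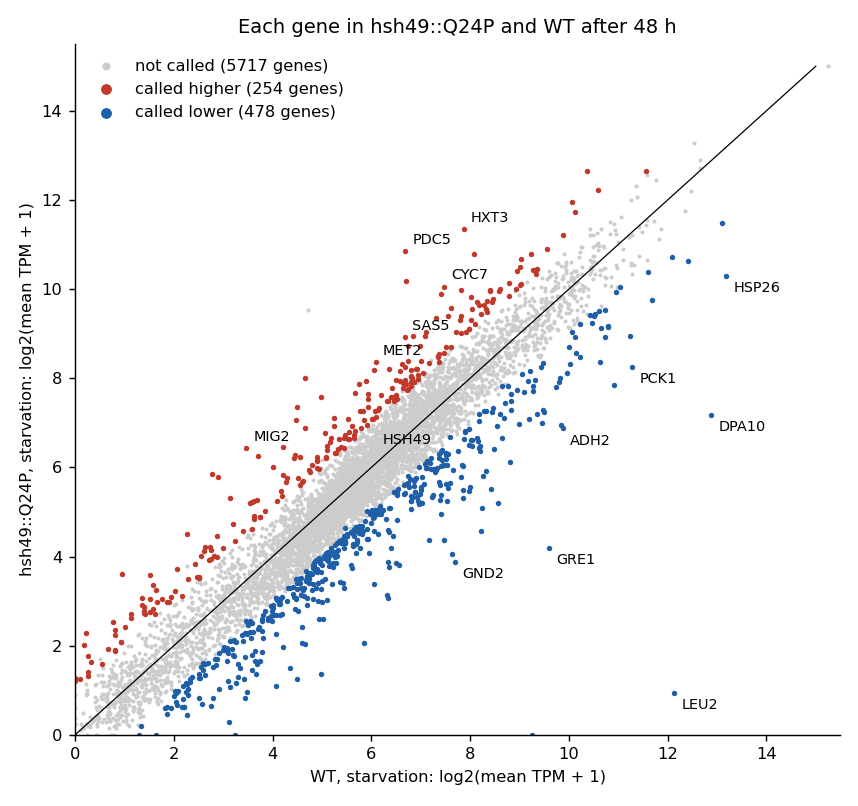
Mean level of each of 6449 genes in starved hsh49::Q24P cells (vertical axis) and starved WT cells (horizontal axis), both as log2(mean TPM + 1) with n = 3, with the line of equality. The 254 genes called higher in hsh49::Q24P are red and the 478 called lower are blue, and LEU2, DPA10 and GRE1 lie farthest below the line among the labelled genes.

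Among the 10 largest rises were genes of glucose uptake and fermentation. PDC5, a pyruvate decarboxylase isozyme, rose by 4.14 ± 0.14 on the log2 scale (adjusted p = 1.29e-14). It stood at 2389, 1570 and 1592 TPM in hsh49::Q24P, against 93.2, 99.5 and 114 TPM in WT. Every mutant library exceeded every WT library more than 10-fold. HXT3, a hexose transporter of low affinity, stood at 2343, 3671 and 1764 TPM in hsh49::Q24P, against 215, 233 and 252 TPM in WT, a difference of 3.40 ± 0.23. HXT4, another hexose transporter, stood at 690.3, 2066 and 746 TPM in hsh49::Q24P, against 96.1, 91.9 and 122 TPM in WT, a difference of 3.30 ± 0.36. Replicate 2 held the highest HXT4 and HXT3 values of the mutant, and without it the differences were 2.80 for HXT4 and 3.12 for HXT3. HXT7, a transporter of high affinity, was already abundant in WT and rose by 2.25 ± 0.19, with 7719, 4651 and 6796 TPM in hsh49::Q24P, against 1233, 1183 and 1556 TPM in WT. HXT1, a low-affinity transporter induced by high glucose, stood at 33.9, 16.5 and 14.7 TPM in hsh49::Q24P, against 3.99, 3.98 and 3.55 TPM in WT, well below the others in both genotypes. Of 16 tested glucose transporters and sensors 7 were called higher and 3 lower, with a median of 0.798 relative to the median gene. Reads from near-identical HXT genes may be split between them.

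Several regulators of glucose repression were also called higher. MIG2, a repressor that acts in glucose-grown cells, stood at 67.2, 131 and 56.7 TPM in hsh49::Q24P, against 11.2, 8.69 and 10.3 TPM in WT, a rise of 2.87 ± 0.26. Its relative MIG3 rose by 1.80 ± 0.15, with 61.4, 91.8 and 75.7 TPM in hsh49::Q24P, against 20.7, 20.4 and 21.9 TPM in WT. All mutant values of MIG3 lay above all WT values, and MIG2, among the 10 largest rises, was chosen without overlap. PFK27, which makes the glycolytic activator fructose 2,6-bisphosphate, stood at 98.5, 292 and 101 TPM in hsh49::Q24P, against 19.5, 19.6 and 25.4 TPM in WT. Its rise of 2.69 ± 0.29 became 2.17 without replicate 2, whose value was the highest. HAP4, an activator of respiratory genes, reached 1.39 ± 0.29, but replicate 2 stood far above the others, with 375, 1179 and 457 TPM in hsh49::Q24P, against 216, 231 and 222 TPM in WT, and without it the difference of 0.89 was under the call threshold. XBP1, a repressor induced by stress and starvation, stood at 61.1, 28.1 and 59.9 TPM in hsh49::Q24P, against 182, 168 and 143 TPM in WT, a difference of -1.78 ± 0.25. Of 52 tested regulators of glucose repression and nutrient signalling, 6 were called higher (11.5%) and 1 lower (1.92%), against 5 and 1 without replicate 2 and 2 and 3 with spike-in scaling.

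Genes of abundant glycolytic enzymes were lower in the mutant. TDH3, the main glyceraldehyde-3-phosphate dehydrogenase, stood at 1930, 1417 and 1430 TPM in hsh49::Q24P, against 5939, 5095 and 5408 TPM in WT, a difference of -1.80 ± 0.12. Its paralog TDH2 showed -1.99 ± 0.11 and the enolase ENO2 -2.03 ± 0.12. ENO2 stood at 145, 115 and 111 TPM in hsh49::Q24P, against 510.5, 435 and 581 TPM in WT, so that no library of 1 genotype reached into the range of the other. Of 20 tested glycolysis genes 9 were called lower (45.0%, against 7.41% of all genes) and 2 higher, at a median of -0.689 relative to the median gene, and without replicate 2 the counts were 8 and 3. PDC6 and ADH2 went the opposite way to PDC5. PDC6, a pyruvate decarboxylase isozyme linked to sulfur limitation, stood at 26.9, 12.4 and 20.2 TPM in hsh49::Q24P, against 198, 151 and 184 TPM in WT, a difference of -3.15 ± 0.19. ADH2, the alcohol dehydrogenase that oxidises ethanol, stood at 119, 47.4 and 183 TPM in hsh49::Q24P, against 1031, 1032 and 761 TPM in WT, a difference of -3.19 ± 0.47, and of -2.65 without replicate 2, the lowest mutant library. ADH7, an NADPH-dependent alcohol dehydrogenase, rose by 2.10 ± 0.29, with 1485, 741 and 787 TPM in hsh49::Q24P, against 224, 188 and 259.7 TPM in WT. In all, 4 of 17 pyruvate decarboxylase and alcohol dehydrogenase genes were called higher and 6 lower. This balance was not stable: the counts were 5 higher and 4 lower without replicate 2 and with library weights, and 4 and 4 in a fit of the 12 starvation libraries.

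Genes of the committed steps of gluconeogenesis were lower in the mutant, with wide scatter between its libraries. PCK1, which makes phosphoenolpyruvate from oxaloacetate, stood at 354, 88.1 and 467 TPM in hsh49::Q24P, against 2499, 2780 and 2208 TPM in WT. FBP1, fructose-1,6-bisphosphatase, stood at 246, 67.7 and 406 TPM in hsh49::Q24P, against 947, 1014 and 706 TPM in WT. In both genes replicate 2 was the lowest mutant library, and all mutant values lay below all WT values. The differences were -3.34 ± 0.52 for PCK1 and -2.21 ± 0.59 for FBP1, and -2.61 and -1.47 without replicate 2. MDH2, the cytosolic malate dehydrogenase, differed by -2.11 ± 0.36. STL1, a glycerol importer, stood at 1.52, 0.504 and 2.13 TPM in hsh49::Q24P, against 22.6, 25.9 and 16.2 TPM in WT, a difference of -3.28 ± 0.25. The whole list went both ways. Of 29 tested genes 8 were called lower and 3 higher, and without replicate 2 the counts were 6 and 4. Its median relative to the median gene was -0.501, made of -0.177, -1.229 and 0.058 in the 3 mutant libraries, against 0.055, 0.126 and -0.182 in WT. JEN1, the lactate and pyruvate importer, was chosen after its values were seen: it rose by 1.71 ± 0.39, with 4764, 1588 and 5477 TPM in hsh49::Q24P, against 1025, 1250 and 918 TPM in WT, and replicate 2 was again the lowest mutant library.

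Pentose phosphate isozymes of starved cells were among the 10 largest falls. GND2, the minor 6-phosphogluconate dehydrogenase, stood at 18.3, 7.88 and 15.2 TPM in hsh49::Q24P, against 234, 220.1 and 166 TPM in WT, a difference of -3.87 ± 0.24. TKL2, the minor transketolase, stood at 30.2, 8.12 and 29.9 TPM in hsh49::Q24P, against 334, 359 and 204 TPM in WT, a difference of -3.82 ± 0.38. The rule that named the 10 largest falls kept only genes without overlap between the genotypes. Replicate 2 held the lowest value of GND2 and of TKL2.

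Several hydrophilin and stress genes that were abundant in starved WT were far lower in the mutant. Of 10 tested hydrophilin and desiccation genes 4 were called lower, 1 was called higher and 5 were not called. DPA10 (YLR307C-A), listed here with the hydrophilins, stood at 147, 85.7 and 198 TPM in hsh49::Q24P, against 7506, 8404 and 6725 TPM in WT. GRE1, a hydrophilin induced by desiccation, stood at 16.8, 9.97 and 25.1 TPM in hsh49::Q24P, against 847, 870.3 and 602 TPM in WT. The differences of -5.78 ± 0.40 and -5.47 ± 0.28 were the largest falls after LEU2 among the open reading frames named by rule. SIP18, a hydrophilin related to GRE1, stood at 178, 241 and 266 TPM in hsh49::Q24P, against 1989, 2274 and 1561 TPM in WT, a difference of -3.09 ± 0.24. HSP26, a small heat shock protein that binds unfolded proteins, stood at 1066, 1522 and 1203 TPM in hsh49::Q24P, against 9598, 10520 and 7865 TPM in WT, a difference of -2.89 ± 0.18. SSA3, an HSP70 of stationary phase, stood at 44.5, 44.6 and 44.8 TPM in hsh49::Q24P, against 372, 369 and 279 TPM in WT, a difference of -2.89 ± 0.09. The mutant libraries lay close together for SSA3, while HSP12, a membrane-stabilising protein, was lowest in replicate 2, with 3611, 1265 and 3678 TPM in hsh49::Q24P, against 9137, 10570 and 6751 TPM in WT. The HSP12 difference was -1.76 ± 0.40, or -1.25 without replicate 2. The heat shock list as a whole went both ways, with 3 of 31 genes called lower and 4 higher, and depended on library and scaling, with 5 lower and 1 higher without replicate 2 and 10 lower and none higher with spike-in scaling. Its 4 genes called higher included HSP10, the mitochondrial co-chaperonin, at 1.30 ± 0.19 and 1.03 without replicate 2. Of 20 stationary phase genes 6 were called lower, or 5 without replicate 2, among them SPG1 at -2.21 ± 0.51 and FMP45 at -2.16 ± 0.50, with -1.44 and -1.35 without replicate 2, and none was called higher.

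**Figure D2:**
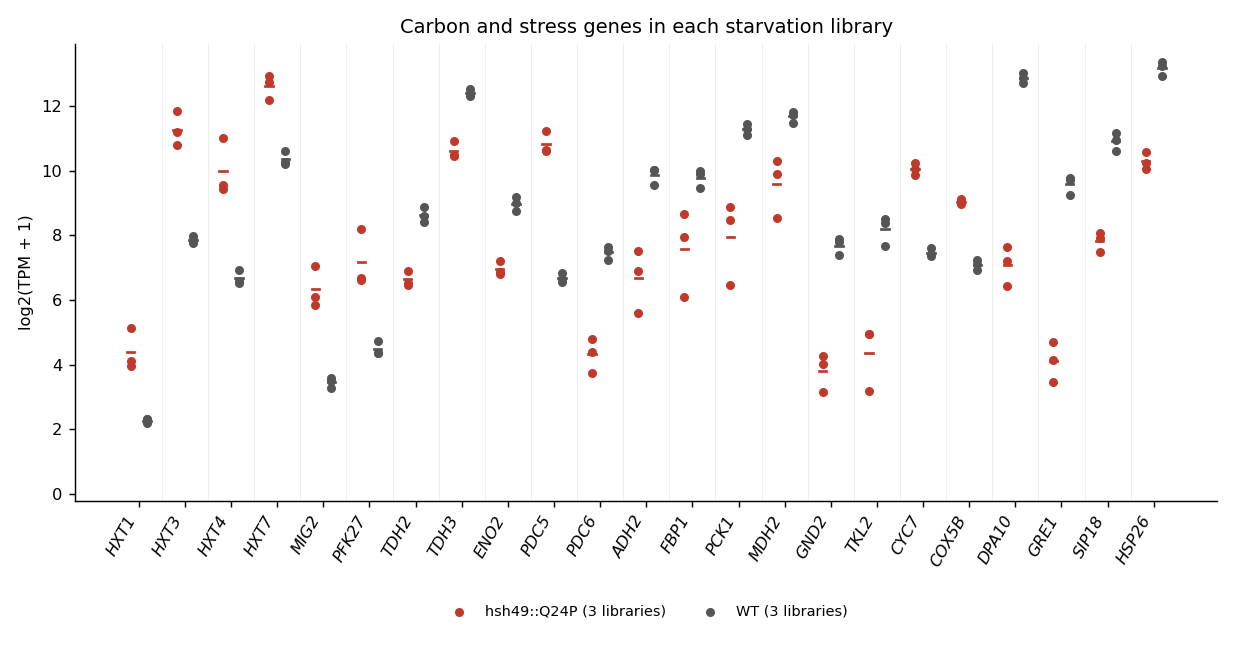
Level of 23 genes of glucose uptake, glycolysis, fermentation, gluconeogenesis, the pentose phosphate pathway, respiration and stress, as log2(TPM + 1), in the 3 hsh49::Q24P (red, left) and 3 WT (grey, right) starvation libraries. Points are libraries and bars are means, and the red points of ADH2, FBP1, PCK1 and TKL2 spread more widely than those of PDC5 or COX5B.

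Nuclear genes for mitochondrial ribosomal proteins were called in the higher direction. Of 72 tested 12 were called higher (16.7%, against 3.94% of all genes) and none lower, and the list median, taken relative to all genes, was 0.691, 0.987 and 0.815 in the mutant libraries, against -0.014, 0.025 and -0.016 in WT. The count was 7 of 72 without replicate 2, 21 with median centring and 1 with spike-in scaling, so that the calls of this list rest on the scaling. RSM22, a protein associated with the small mitochondrial subunit, rose by 1.86 ± 0.09, with 146, 135 and 129 TPM in hsh49::Q24P, against 36.6, 37.4 and 37.1 TPM in WT. IMG2, of the large subunit, stood at 230.5, 281 and 223 TPM in hsh49::Q24P, against 95.1, 92.2 and 98 TPM in WT, a difference of 1.35 ± 0.10. The nuclear genes of the respiratory chain had a relative median of 0.533, with 2 of 41 called higher and 1 lower, or none lower without replicate 2. Both called higher encode isoforms linked to low oxygen. CYC7, a cytochrome c isoform, stood at 925, 1202 and 1067 TPM in hsh49::Q24P, against 165, 194 and 171 TPM in WT, a rise of 2.58 ± 0.22. COX5B, an isoform of cytochrome oxidase subunit V, stood at 555, 497 and 531 TPM in hsh49::Q24P, against 121, 149 and 139 TPM in WT, a rise of 1.95 ± 0.10. Its aerobic counterpart COX5A was not called, at 0.49 ± 0.13; it was chosen after its values were seen. Among 34 tested hypoxic and mannoprotein genes 5 were called higher and 1 lower, and the one called lower was OLE1, the fatty acid desaturase, at -2.13 ± 0.18. The counts were 4 and 1 without replicate 2 and 2 and 5 with spike-in scaling.

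Genes of sulfur assimilation and methionine synthesis rose in part. Of 37 tested 11 were called higher (29.7%) and none lower, with the same counts without replicate 2 but 5 higher and 3 lower with spike-in scaling, at a relative median of 0.58, 0.484 and 0.493 in the mutant libraries, against 0.004, -0.129 and 0.137 in WT. MET2, which acylates homoserine, stood at 365, 312 and 301 TPM in hsh49::Q24P, against 68.8, 62.7 and 70 TPM in WT, a rise of 2.26 ± 0.11. SUL2, a sulfate permease, stood at 132, 112 and 106 TPM in hsh49::Q24P, against 23, 21.2 and 27.9 TPM in WT, a rise of 2.24 ± 0.10. MUP1, the high-affinity methionine permease, rose by 2.12 ± 0.16 and MET16, which reduces activated sulfate, by 1.71 ± 0.15. The letters TCACGTG, bound by Cbf1, occur on either strand in the 500 bases before the start codon of 21 of 37 listed genes (56.8%) and of 7 of the 11 called, against 274 of 6002 genes (4.57%) of the R64 reference. Examples before genes called higher are shown, read 5′ to 3′ on the gene's own strand with the motif in capitals, as a description of these letters only. A gene with several matches counts once, here and in the searches below, which used the same window and both strands. The same search was made for CGGA, 2 bases of any kind and A, bound by Rgt1, in the glucose transporter and sensor list. These letters occur before 14 of 21 listed genes (66.7%), against 2521 of 6002 genes (42.0%). They occur before 5 of the 7 called higher and 2 of the 3 called lower.
SUL2, chrXII:323199-323225, plus strand: ggagtaaatgTCACGTGccactgtggc
MET16, chrXVI:877795-877821, minus strand: tatcatcattTCACGTGgctagtaaaa
MET2, chrXIV:116985-117011, plus strand: tgacgtatttTCACGTGatgcgcctca

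Genes of branched-chain amino acid synthesis, many of which are regulated by Leu3, were called higher, while LEU2, which belongs to them, was near 0 in the mutant. Of 16 tested 7 were called higher (43.8%), or 6 without replicate 2, and the only one called lower was LEU2. With spike-in scaling 3 were called higher and 3 lower. OAC1, the mitochondrial exporter of the leucine precursor, stood at 722, 726 and 574 TPM in hsh49::Q24P, against 178, 173 and 210.4 TPM in WT, a rise of 1.84 ± 0.14. LEU1, isopropylmalate isomerase, stood at 4716, 5506 and 4073 TPM in hsh49::Q24P, against 1481, 1414 and 1755 TPM in WT, a rise of 1.61 ± 0.14. BAP2, a permease for branched-chain amino acids, rose by 1.48 ± 0.15, with 1624, 1214 and 1492 TPM in hsh49::Q24P, against 484, 477 and 587 TPM in WT. No mutant value of these 3 genes fell into the WT range. The letters CCGG, 2 bases of any kind and CCGG again are bound by Leu3. They occur in the 500 bases before 7 of 16 of these genes (43.8%), against 16 of 6002 genes (0.267%). Matches lie before 3 of the 7 called higher and before LEU2, the only one called lower. The matches before LEU1 and BAP2 are shown because both genes rose.
LEU1, chrVII:478850-478879, minus strand: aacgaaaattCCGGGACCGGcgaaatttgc
BAP2, chrII:376057-376086, minus strand: ttttgtgggaCCGGAACCGGcatccacatt

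Purine synthesis had the lowest median of the 51 lists examined. Of 26 tested genes 14 were called lower (53.8%) and none higher, with the same counts without replicate 2, and the relative median stood at -0.926, -1.173 and -1.196 in the mutant libraries, against 0.002, -0.097 and 0.117 in WT. ADE17, which closes the purine ring to IMP, stood at 49.6, 36.1 and 45 TPM in hsh49::Q24P, against 246, 231 and 278 TPM in WT, a difference of -2.51 ± 0.25. IMD3, IMP dehydrogenase, stood at 60, 31.6 and 41 TPM in hsh49::Q24P, against 239, 202 and 252 TPM in WT, a difference of -2.40 ± 0.16. GUA1, GMP synthase, differed by -2.12 ± 0.14 and the salvage enzyme HPT1 by -2.08 ± 0.11. Mutant and WT values of all 4 genes were apart. The letters TGACTC, shared by the sites of Bas1 and Gcn4, occur before 19 of 26 listed genes (73.1%) and 13 of the 14 called, against 759 of 6002 genes (12.6%).
ADE17, chrXIII:509572-509597, minus strand: ttgcagttttTGACTCttttttcctt
GUA1, chrXIII:701510-701535, plus strand: cccgacatttTGACTCttttcatgcc

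Genes under nitrogen catabolite repression, which are switched on by GATA factors when good nitrogen sources are short, were mostly lower where they were called. Of 37 tested 14 were called lower (37.8%) and 2 higher (5.41%), and without replicate 2 the counts were 15 and 4. DUR12, urea amidolyase, stood at 12.5, 13.5 and 12.9 TPM in hsh49::Q24P, against 90.3, 82.2 and 106 TPM in WT, a difference of -2.74 ± 0.14. The urea importer DUR3 differed by -2.61 ± 0.18 and the ammonium permease MEP2 by -2.30 ± 0.20. GAP1, the general amino acid permease, stood at 172, 42 and 166 TPM in hsh49::Q24P, against 709.7, 628 and 761 TPM in WT, with replicate 2 the lowest, a difference of -2.70 ± 0.39 or of -2.04 without it. Other amino acid permeases went the opposite way: GNP1, for glutamine, rose by 2.54 ± 0.19 with 158, 88 and 153 TPM in hsh49::Q24P, against 19.8, 20 and 24.2 TPM in WT, and BAP3 by 2.13 ± 0.17. In all, 5 of 24 permeases were called higher and 2 lower, and without replicate 2 the counts were 9 and 2. The letters GATAAG occur before all 14 genes called lower and 28 of 37 listed genes (75.7%), against 1365 of 6002 genes (22.7%).
DUR12, chrII:642519-642544, minus strand: aagccattgaGATAAGacacgcagat
GAP1, chrXI:514584-514609, plus strand: atttccttttGATAAGgggtcgttgg

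Genes of sterol and fatty acid synthesis were lower where they were called, with few exceptions. Of 31 tested ergosterol genes 12 were called lower (38.7%) and 1 higher, and the relative median stood at -0.325, -0.325 and -0.313 in the mutant libraries, against 0.031, -0.048 and 0.002 in WT. ERG13, HMG-CoA synthase, stood at 22.4, 15.9 and 20.4 TPM in hsh49::Q24P, against 156, 134 and 138 TPM in WT, a difference of -2.82 ± 0.11. ERG1, squalene epoxidase, differed by -2.02 ± 0.13, ERG25, a sterol methyl oxidase, by -2.04 ± 0.09 and ERG3, the C-5 desaturase, by -1.86 ± 0.08. The gene called higher was UPC2, a regulator of sterol synthesis, named here after its values were seen, at 1.12 ± 0.11 and just under the threshold at 0.99 without replicate 2. Of 25 inositol and phospholipid genes 4 were called lower and 2 higher. FAS1 and FAS2, the subunits of fatty acid synthase, differed by -1.92 ± 0.15 and -1.83 ± 0.18, and INO1, of inositol synthesis, by -1.83 ± 0.22. PIS1, phosphatidylinositol synthase, rose by 1.84 ± 0.05, with 286, 306 and 290.3 TPM in hsh49::Q24P, against 80.3, 80.4 and 82.7 TPM in WT. The letters TCGTATA, bound by Upc2 and Ecm22, occur before 10 of 32 listed genes (31.2%) and 8 of the 12 called lower, against 420 of 6002 genes (7.0%).
ERG25, chrVII:610071-610097, plus strand: ctgcctccctTCGTATAcgggacacag
ERG1, chrVII:848789-848815, minus strand: tagcgggcctTCGTATAgctcggccga

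**Figure D3:**
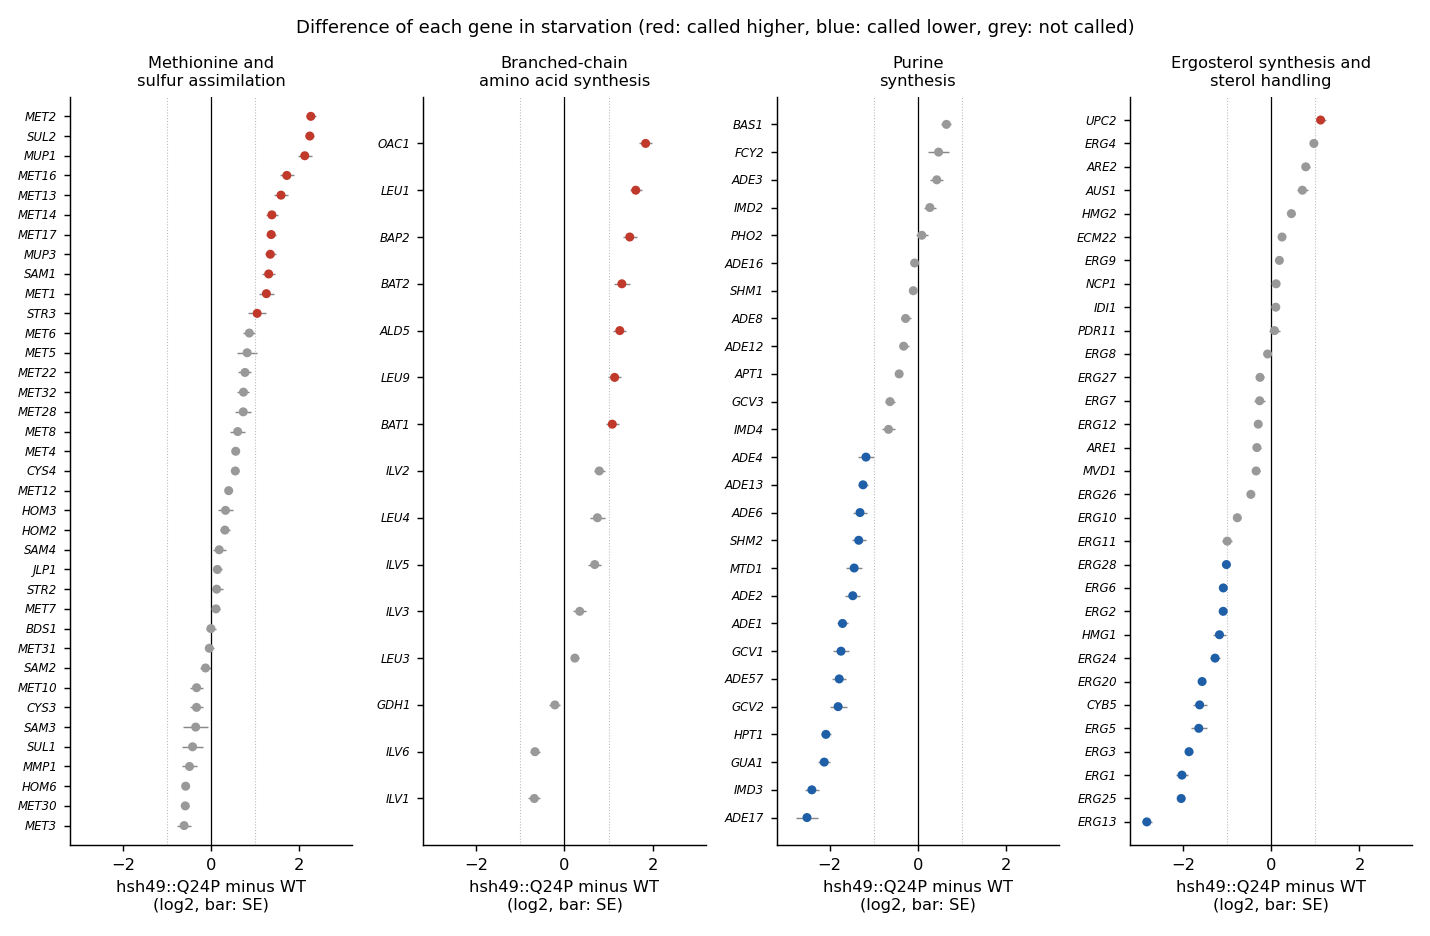
Difference between hsh49::Q24P and WT in starvation on the log2(TPM + 1) scale, with SE, for each tested gene of 4 biosynthesis lists (LEU2 is left off the branched-chain panel). The 11 methionine and 7 branched-chain genes called higher are red, and the 14 purine and 12 ergosterol genes called lower are blue.

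A minority of the genes for the machinery that builds ribosomes were called lower. Of 124 tested ribosome biogenesis genes 22 were called lower (17.7%) and none higher, while 102 were not called, and 29 were lower without replicate 2 and 62 with spike-in scaling. Of 26 genes of RNA polymerases I and III 3 were called lower, or 4 without replicate 2. The relative median of the ribosome biogenesis list stood at -0.572, -0.117 and -0.684 in the mutant libraries, replicate 2 being closest to WT. In WT it stood at -0.008, -0.062 and 0.07. DBP2, an RNA helicase, stood at 14.2, 16.6 and 10.5 TPM in hsh49::Q24P, against 77.7, 53 and 108 TPM in WT, a difference of -2.41 ± 0.22. NOP14, of the small subunit processome, differed by -1.80 ± 0.14 and RRP1, of large subunit maturation, by -1.79 ± 0.12. The letters GCGATGAG of the PAC element occur before 66 of 124 listed genes (53.2%) and 14 of the 22 called, against 290 of 6002 genes (4.83%). Of 81 large subunit genes 3 were called lower (3.7%), and of 57 small subunit genes 2 were called higher (3.51%) and 1 lower (1.75%). These shares lay below the 3.94% higher and 7.41% lower of all genes. The 3 large subunit genes called lower included RPL4A at -1.74 ± 0.13 and RPL9A at -1.52 ± 0.16. Among translation factors HYP2, the aerobic eIF5A, stood at 262, 217 and 292 TPM in hsh49::Q24P, against 950.5, 904 and 837 TPM in WT, a difference of -1.81 ± 0.09. Its hypoxic counterpart ANB1 was called higher at 1.26 ± 0.29 but not without replicate 2, at 0.82.
NOP14, chrIV:190727-190754, minus strand: taatattgggGCGATGAGccgtacagaa
RRP1, chrIV:618410-618437, minus strand: aaaaaaaaatGCGATGAGctgaaaaaaa

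No gene of the U2 snRNP or the U1 snRNP was called by limma in either direction, out of 16 and 12 tested. By p alone, 10 of the 16 U2 genes and 7 of the 12 U1 genes were under 0.05 unadjusted and 9 and 6 under 0.05 adjusted. Of all 6449 genes tested 4151 were under 0.05 unadjusted and 3887 adjusted, so the U2 and U1 shares were no higher than those of all genes. Small differences in the U2 list depended on the scaling: scaled to the spike-in RNAs, HSH49, HSH155, CUS1, YSF3, RDS3 and MSL1 changed sign. Among the SF3b and SF3a genes, CUS1 stood at 50.7, 72.9 and 58.7 TPM in hsh49::Q24P, against 45.2, 48.2 and 43.8 TPM in WT, above WT in every library, a difference of 0.39 ± 0.10. RSE1 stood at 25.7, 16.8 and 24.4 TPM in hsh49::Q24P, against 32.4, 30.3 and 35 TPM in WT, a difference of -0.54 ± 0.12. HSH155, whose protein clamps the branch point, differed by 0.16 ± 0.08, RDS3 by 0.20 ± 0.09 and YSF3 by 0.02 ± 0.07. PRP9, PRP11 and PRP21, of SF3a, differed by -0.10 ± 0.09, 0.54 ± 0.07 and 0.44 ± 0.07. LEA1 and MSL1, which bind the U2 RNA, differed by -0.13 ± 0.16 and 0.17 ± 0.08. PRP5, the helicase that remodels U2, differed by 0.42 ± 0.07 and CUS2, which binds U2 before it, by -0.50 ± 0.07. The RES complex genes IST3, BUD13 and PML1 differed by -0.06 ± 0.12, 0.47 ± 0.10 and 0.55 ± 0.10. Of 62 other spliceosome genes 3 were called lower (4.84%): the helicase PRP43 at -1.50 ± 0.11, CWC2 at -1.12 ± 0.16 and the lariat debranching enzyme DBR1 at -1.13 ± 0.15, the last not called without replicate 2 at -0.91.

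Genes with an intron gave calls at or below the share of all genes. Of 90 tested ribosomal protein genes with an intron 2 were called higher (2.22%) and 1 lower (1.11%), and of 48 without an intron 3 were called lower (6.25%). Of 176 other genes with an intron 5 were called higher (2.84%) and 7 lower (3.98%). With spike-in scaling none were higher and 11 lower among ribosomal protein genes with an intron, none and 9 among those without, and 2 and 29 among the other genes with an intron. Their relative medians without that scaling were -0.024, -0.14 and 0.013. TPM per gene does not separate spliced from unspliced RNA, so these values give gene-level RNA and not splicing. The 2 genes for ribosomal protein S22 were called in opposite directions. RPS22B, which has introns, stood at 215, 201 and 172 TPM in hsh49::Q24P, against 80.3, 87.3 and 99.8 TPM in WT, a rise of 1.13 ± 0.14. RPS22A, which has none, stood at 114, 92.7 and 82.2 TPM in hsh49::Q24P, against 250.3, 218 and 309 TPM in WT, a difference of -1.42 ± 0.17. The coding regions are near-identical, so reads could be split between them. RPS9A rose by 1.25 ± 0.17, with 232, 278 and 202 TPM in hsh49::Q24P, against 92.5, 101 and 102 TPM in WT, and RPL22A differed by -1.19 ± 0.14. Among other genes with an intron the meiotic APC activator AMA1 stood at 4.64, 1.96 and 4.73 TPM in hsh49::Q24P, against 15.8, 16.4 and 15.2 TPM in WT, a difference of -1.88 ± 0.20. VPS75, a histone chaperone, stood at 18.2, 16.8 and 16.6 TPM in hsh49::Q24P, against 55.1, 52.6 and 53.6 TPM in WT, a difference of -1.59 ± 0.07.

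Cell cycle and cell surface genes were mostly lower where they were called. Of 22 tested cyclins and cell cycle regulators 9 were called lower (40.9%) and none higher, and 8 were lower without replicate 2. PCL1, a cyclin of the kinase Pho85, stood at 1.86, 1.2 and 1.62 TPM in hsh49::Q24P, against 34.9, 23.8 and 33.2 TPM in WT, a difference of -3.62 ± 0.24. CLN1, a G1 cyclin, stood at 1.35, 0.762 and 1.32 TPM in hsh49::Q24P, against 14.6, 14.7 and 18.1 TPM in WT, a difference of -2.97 ± 0.12. CLN2 differed by -1.92 ± 0.14 and FAR1, a cyclin-dependent kinase inhibitor, by -2.01 ± 0.25. All 4 stood at low levels in both genotypes, where a fold on the log2(TPM + 1) scale understates the ratio. Of 40 tested genes of daughter-cell separation and cell wall 17 were called lower (42.5%) and 1 higher, or 16 and 1 without replicate 2. CWP2, an abundant mannoprotein, stood at 129, 118 and 119.7 TPM in hsh49::Q24P, against 889, 944 and 905 TPM in WT, a difference of -2.89 ± 0.10. CWP1, another cell wall mannoprotein, stood at 15.2, 11.1 and 20.3 TPM in hsh49::Q24P, against 194, 250.3 and 145 TPM in WT, a difference of -3.58 ± 0.27. DSE1, a daughter-specific gene, differed by -2.50 ± 0.12 and the wall protein PIR3 by -2.30 ± 0.19.

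Of 11 histone genes 3 were called lower, or 2 without replicate 2, led by HTA2 at -1.90 ± 0.10 and HTB1 at -1.24 ± 0.09. Of 48 tested meiosis genes 10 were called lower (20.8%, against 7.41% of all genes) and 2 higher, or 9 and 3 without replicate 2. Many of these genes stood at low levels: with a pseudocount of 5 the counts were 3 lower and 1 higher. At a minimum of 10 TPM 18 were tested, with 5 lower and 1 higher. IME1, the master activator of meiosis, stood at 72.6, 19.5 and 71.7 TPM in hsh49::Q24P, against 285, 298 and 336 TPM in WT, with replicate 2 the lowest, and differed by -2.68 ± 0.32 or by -2.07 without it. SPS100, a spore wall gene, differed by -2.41 ± 0.12. Of 25 genes of mating type a and the pheromone response 5 were called lower, or 4 without replicate 2, among them the agglutinin gene AGA2 at -2.09 ± 0.15 and STE4, the G-protein beta subunit, at -1.52 ± 0.10. AQY1, a spore aquaporin, was among the 10 largest falls with 45.2, 5.22 and 49 TPM in hsh49::Q24P, against 356, 363 and 190.4 TPM in WT; its difference of -3.59 ± 0.59 was -2.60 without replicate 2.

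Genes of metal and nutrient uptake gave smaller counts. Of 34 tested iron genes 5 were called higher (14.7%) and 1 lower (2.94%), but 1 higher and 4 lower with spike-in scaling and 5 and none without replicate 2. They were led by ISU2, an iron-sulfur scaffold, at 1.74 ± 0.06 with 436, 426 and 409 TPM in hsh49::Q24P, against 128, 115 and 136 TPM in WT. Of 15 zinc genes 4 were called lower and 1 higher: ZPS1 differed by -2.68 ± 0.14 and the zinc importer ZRT1 by -1.85 ± 0.22. Of 27 phosphate genes 3 were called lower and 1 higher, or 2 and 2 without replicate 2, PHO89, a sodium-phosphate importer, at -2.53 ± 0.47 and PHO84, a proton-phosphate importer, at 1.16 ± 0.17. Replicate 2 was the lowest for PHO89, and the difference without it was -1.75. Thiamine synthesis had 4 of 21 called lower, all of the near-identical THI5 family. Several lists had shares of genes called lower near or below the 7.41% of all genes: antioxidant enzymes had 3 of 32 lower (9.38%) and 1 higher, autophagy 2 of 35 lower (5.71%) and 1 higher, and trehalose and glycogen 1 of 22 lower (4.55%). The TCA cycle had 3 of 22 lower (13.6%) and beta-oxidation 4 of 32 lower (12.5%) and 1 higher, and the Ehrlich pathway of amino acid breakdown 2 of 21 lower and 5 higher. No gene was called by limma among 35 of the proteasome, 12 of the COS family and 9 of the mitochondrial genome, where 26, 5 and 2 had an unadjusted p under 0.05. Of all 6449 genes tested 4151 had one. Without replicate 2 the genes called lower were 1 each in the TCA, beta-oxidation and autophagy lists and 2 among antioxidant enzymes. With spike-in scaling the Ehrlich list had 4 lower and 3 higher. That scaling also gave 8 of 22 trehalose and glycogen genes, 8 of 32 antioxidant enzymes and 4 of 35 autophagy genes as lower. It gave 1110 of all 6449 genes as lower, so the low share of the trehalose and glycogen list depends on the scaling. Among other amino acid synthesis genes 4 of 45 were called lower, or 3 without replicate 2, including LYS9, of lysine synthesis, at -1.98 ± 0.14, and CPA1, of arginine synthesis, was called higher at 1.54 ± 0.09.

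**Figure D4:**
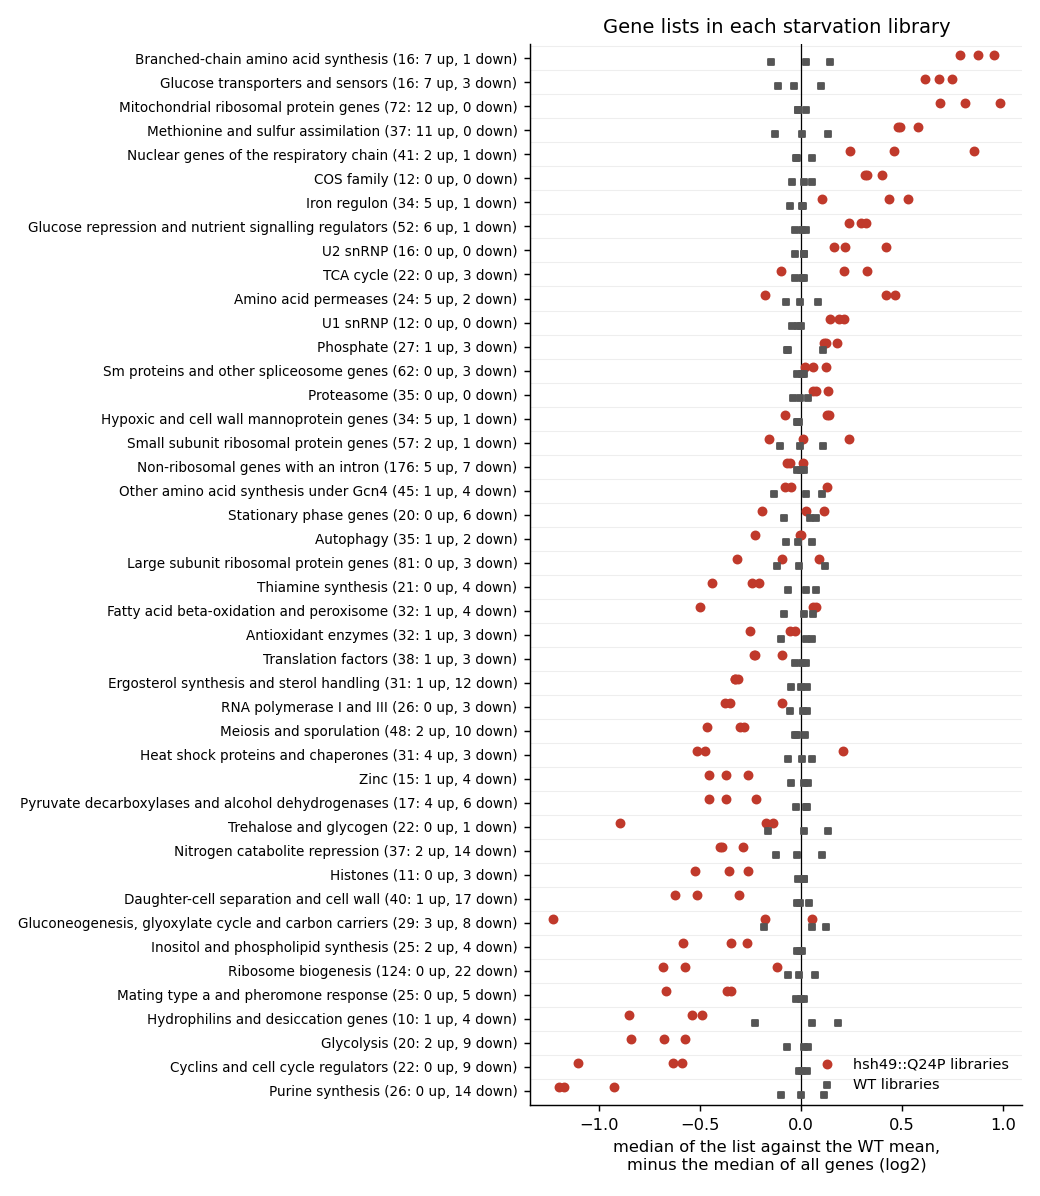
Median of each gene list in each starvation library, as the difference from the WT mean minus that of all genes (log2), for the 3 hsh49::Q24P libraries (red circles, above) and the 3 WT libraries (grey squares, below). Numbers in brackets are genes tested and called in each direction, and by the median of all 3 mutant libraries the purine list lies lowest and the branched-chain list highest, while the gluconeogenesis list spans -1.229 to 0.058 in the mutant.

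The 10 largest rises also held genes of little known function that lie together. YJL213W stood at 305, 179 and 278 TPM in hsh49::Q24P, against 22.2, 22.9 and 27.2 TPM in WT, a rise of 3.32 ± 0.18. REE1 (YJL217W) stood at 1554, 2063 and 1667 TPM in hsh49::Q24P, against 269.5, 271 and 268 TPM in WT, a rise of 2.69 ± 0.08. YJL218W stood at 52.9, 58.7 and 49.8 TPM in hsh49::Q24P, against 6.31, 5.93 and 6.93 TPM in WT, a rise of 2.89 ± 0.14. The rule that named the largest rises kept only genes without overlap between the genotypes. In the R64 annotation these 3 genes lie within a stretch of 5 genes on chromosome X. The other two of the stretch, the isomaltase gene IMA5, named after its values were seen, and the transporter gene HXT8, were not called, at 0.87 ± 0.17 and 0.30 ± 0.20, and IMA5 was called without replicate 2, at 1.03. YOR316C-A, a short open reading frame, rose by 3.10 ± 0.32, with 59, 46 and 65.7 TPM in hsh49::Q24P, against 5.01, 7.45 and 4.94 TPM in WT. Among the largest falls YDL218W, of unknown function, differed by -3.95 ± 0.36 with 3.25, 0.769 and 5.5 TPM in hsh49::Q24P, against 64.8, 66 and 40.1 TPM in WT, and SHH3, a mitochondrial membrane protein, by -3.44 ± 0.32.

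RNAs that are normally not polyadenylated were also listed. Of 129 tested transfer RNA genes 30 were called higher (23.3%, against 3.94% of all genes) and 4 lower (3.1%, against 7.41%). Of 81 small nuclear and nucleolar RNAs 5 were called higher and 3 lower. The tRNA counts changed with the pseudocount and the scaling: 5 were higher and 1 lower with a pseudocount of 5. With spike-in scaling 16 were higher and 5 lower, against 99 and 1110 of all 6449 genes. At a minimum of 10 TPM 14 of 23 tested were higher and 1 lower, against 218 and 423 of all 5622 genes tested. With spike-in scaling 3 small nuclear and nucleolar RNAs were higher and 11 lower. SUP53, a leucine tRNA gene that lies beside LEU2, was listed at 0 in the 3 mutant libraries and stood at 575, 608 and 638 TPM in WT. Its difference of -9.25 was a larger fall than those of DPA10 and GRE1. SNR45 stood at 229, 140.2 and 202 TPM in hsh49::Q24P, against 28.6, 31.9 and 30.6 TPM in WT, a rise of 2.58 ± 0.19. Rows of ribosomal RNA summed to 6606.7, 7754.0 and 9659.8 TPM in hsh49::Q24P, against 3442.7, 5403.4 and 7431.5 TPM in WT. The part of this in the tRNA and SNR45 differences was not tested.

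In log phase 7 genes were called between the same genotypes (0.109%), 4 higher (0.062%) and 3 lower (0.0465%) in hsh49::Q24P, with 358 at an unadjusted p under 0.05 in limma. The starvation response of hsh49::Q24P differed from that of WT, by an interaction term, in 724 genes (11.2%): in 216 the mutant stood higher than the sum of both effects (3.35%) and in 508 lower (7.88%). The log libraries of hsh49::Q24P held LEU2 RNA at 465.5, 117.6 and 63.03 TPM, against 4513, 5154 and 5907 TPM in WT, and URA3 RNA at 0.4585, 0.075 and 0.03908 TPM, against 5.424, 3.679 and 5.772 TPM in WT, whereas the starved mutant libraries held between 0.828 and 1.1 TPM of LEU2 RNA and listed URA3 at 0. The LEU2 levels of the hsh49::Q24P log libraries thus lay between those of WT and of starved hsh49::Q24P, and whether these log cultures were mixed with other cells was not tested. The 7 calls in log phase and the interaction counts are given with this doubt. Among the named genes PDC5 had an interaction of 4.37 ± 0.20, HXT3 of 3.21 ± 0.32, DPA10 of -6.16 ± 0.57 and GRE1 of -5.41 ± 0.39. RPS22B, chosen here after its values were seen, had one of 2.06 ± 0.20: in log phase it stood at 244, 199 and 202 TPM in hsh49::Q24P, against 441, 406 and 382 TPM in WT, with the mutant below WT in every log library and above it in every starvation library.

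Starved nam8D and mud1D cells stood close to hsh49::Q24P, and away from WT, for many of the genes above. PDC5 stood at 3530, 2925 and 2952 TPM in nam8D and 2420, 2065 and 2514 TPM in mud1D, with differences of -0.78 ± 0.14 between hsh49::Q24P and nam8D and -0.36 ± 0.14 between hsh49::Q24P and mud1D, neither called. ADE17 stood at 98.8, 35.4 and 37.4 TPM in nam8D and 36.6, 38.3 and 32.2 TPM in mud1D, with uncalled differences of -0.23 ± 0.25 and 0.27 ± 0.25. GRE1 stood at 6.82, 8.52 and 8.4 TPM in nam8D and 28.8, 15.4 and 11.1 TPM in mud1D, with uncalled differences of 0.95 ± 0.28 and -0.07 ± 0.28. ERG13, OAC1, SUL2, HSP26, CWP2 and PIS1 were likewise not called in either comparison. Their differences from mud1D were 0.05 ± 0.11 for ERG13, 0.17 ± 0.14 for OAC1, -0.03 ± 0.10 for SUL2, -0.41 ± 0.18 for HSP26, -0.18 ± 0.10 for CWP2 and -0.08 ± 0.05 for PIS1. Of the 254 genes called higher than in WT 247 were not called against nam8D and 252 not against mud1D, and of the 478 called lower 456 and 475 were not. Most genes of any kind were not called: of all 6449, 77 were called against nam8D (1.19%) and 17 against mud1D (0.264%). Missing calls are thus not particular to the genes called against WT. Of the 478 called lower, 18 were called higher and 4 lower against nam8D. By list, 3 of 10 hydrophilin and desiccation genes and 4 of 20 stationary phase genes were called higher in hsh49::Q24P than in nam8D. No gene of these lists was called against mud1D. The comparisons with nam8D and mud1D share the hsh49::Q24P libraries, and a missing call does not show that levels are equal.

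A direct comparison of starved mutants leaves out WT and its LEU2 and URA3 RNA. Between hsh49::Q24P and nam8D 77 genes were called, 65 higher (1.01%) and 12 lower (0.186%) in hsh49::Q24P. NAM8 itself stood at 58.8, 38.8 and 66.6 TPM in hsh49::Q24P and at 0.197, 0.123 and 0.0365 TPM in nam8D. Of 29 gluconeogenesis genes 18 were called higher in hsh49::Q24P. SFC1, a succinate-fumarate carrier, stood at 903, 224 and 1220 TPM in hsh49::Q24P, against 28.7, 94.2 and 109 TPM in nam8D, a difference of 3.21 ± 0.60. MLS1, malate synthase, differed by 2.72 ± 0.43, ADH2 by 2.60 ± 0.47 and FBP1 by 2.35 ± 0.59. Replicate 2 of hsh49::Q24P was the lowest of its group for SFC1, MLS1, ADH2 and FBP1. The genes lower in hsh49::Q24P included NSR1, a nucleolar protein, at -1.66 ± 0.29, the nucleolar protein NOP58 at -1.09 ± 0.16, RPS22A at -1.11 ± 0.17 and HMS1 at -1.12 ± 0.18. NSR1 stood at 27.5, 36.3 and 18.1 TPM in hsh49::Q24P, against 92.7, 82.2 and 80.7 TPM in nam8D. Without replicate 2 of hsh49::Q24P 181 genes were called, and in a fit of these 6 libraries alone 10 were.

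Between hsh49::Q24P and mud1D 17 genes were called, 14 higher (0.217%) and 3 lower (0.0465%) in hsh49::Q24P. MUD1 stood at 85.4, 99.7 and 91.6 TPM in hsh49::Q24P and at 3.46, 3.45 and 3.82 TPM in mud1D. No gene of the gluconeogenesis list was called by limma, and 2 of 29 had an unadjusted p under 0.05. Of all 6449 genes tested 757 had one and 17 were called (0.264%), so a list without a call is common here. YIR042C differed by 2.00 ± 0.10, COS8 by 1.48 ± 0.11 and YPS5, of the yapsin protease family, by 1.22 ± 0.19. YLR154W-F and YLR154W-E, open reading frames within the ribosomal DNA, were lower in hsh49::Q24P, with differences of -2.74 ± 0.25 and -2.15 ± 0.21. Without replicate 2 of hsh49::Q24P 52 genes were called, and in a fit of these 6 libraries alone 6 were.

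SAS5, a subunit of the SAS histone acetyltransferase that acts on H4 near silenced chromatin, was higher in hsh49::Q24P than in each of the other 3 genotypes in starvation. It stood at 528, 464 and 465 TPM in hsh49::Q24P, 157, 166 and 159 TPM in nam8D, 162, 174 and 159.8 TPM in mud1D and 94.8, 96.9 and 112 TPM in WT. All 3 hsh49::Q24P libraries, replicate 2 included, stood above all others. The differences were 2.25 ± 0.07 from WT (adjusted p = 5.43e-15), 1.59 ± 0.07 from nam8D and 1.55 ± 0.07 from mud1D. The gene was already higher in log phase, at 168, 167 and 186 TPM in hsh49::Q24P, against 43.8, 44.3 and 43.6 TPM in WT, and its interaction of 0.29 ± 0.10 was not called. The gene next to it, SPR2, named here after its values were seen, lies on the same strand in the R64 annotation, and its RNA was also higher than in each other genotype, though far less abundant. SPR2 stood at 5.35, 3.28 and 4.34 TPM in hsh49::Q24P, 0.561, 0.205 and 0.404 TPM in nam8D, 0.716, 0.297 and 0.272 TPM in mud1D and 1.29, 0.709 and 1.02 TPM in WT. Its differences were 1.40 ± 0.18 from WT, 1.93 ± 0.18 from nam8D and 1.89 ± 0.18 from mud1D. STE4, next to SAS5 on the other side, and AIM41, next to SPR2, were not called between hsh49::Q24P and either deletion mutant. AAD15, an aryl-alcohol dehydrogenase gene, was the only gene beside SAS5 and SPR2 called in all 3 comparisons, lower than in WT and higher than in both deletion mutants, at -1.10 ± 0.20, 1.05 ± 0.20 and 1.36 ± 0.20. The 3 comparisons share the hsh49::Q24P libraries, and without replicate 2 the AAD15 difference from WT was -0.88, not called.

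**Figure D5:**
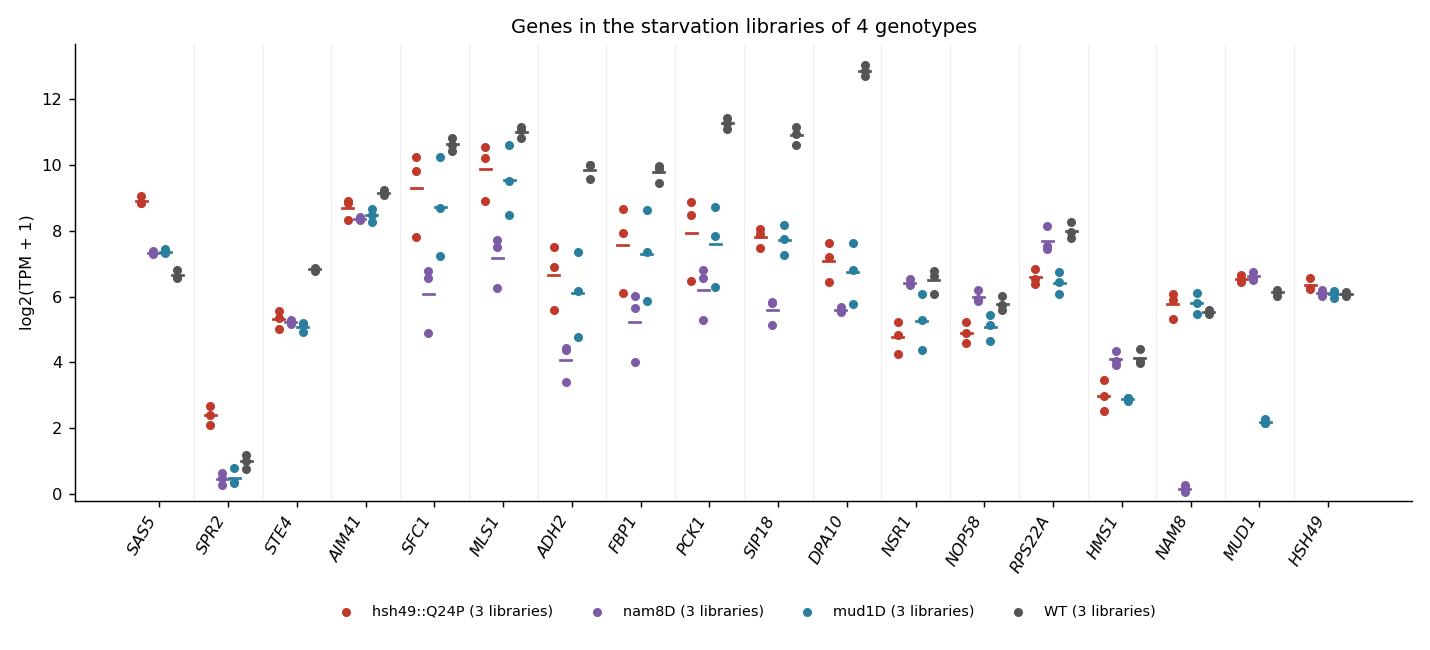
Level of 18 genes as log2(TPM + 1) in the starvation libraries of hsh49::Q24P (red), nam8D (purple), mud1D (blue) and WT (grey), 3 libraries each, with the group mean as a bar. SAS5 and SPR2 lie highest in hsh49::Q24P, ADH2 and SIP18 lie lower in nam8D than in hsh49::Q24P, and NAM8 and MUD1 are lowest in their own deletion mutants.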

How the data were processed

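RNA of budding yeast was sequenced in 24 libraries, 3 in each of 8 groups, and the comparison reported here takes hsh49::Q24P against WT in starvation. TPM values per gene are used as deposited by the authors, and STAR 2.7.9a, Trimmomatic 0.39 and FastQC 0.11.9 are listed in the submitters' processing notes. The build, annotation and strand setting, and how multi-mapped reads were shared out, are not given in the sources used here. TPM keep no read counts, so sequencing depth is unknown and counting error cannot be stated. TPM are also shares of a library, so a change in abundant RNAs shifts all other values. Of 8009 rows 7121 name a gene, and 92 spike-in rows were not tested. Genes with at least 1 TPM in at least 3 libraries were tested, 6449 in all.

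Tests used limma 3.58.1 (R 4.3.3) on log2(TPM + 1), a scale that understates differences of low genes. The model had 1 mean for each group, an intensity trend, 16 residual degrees of freedom and a median prior of 3.41, with Benjamini-Hochberg adjustment over all genes tested within each comparison. Symbols, introns and sequences came from the R64 RefSeq annotation, matched by gene identifier for 6050 rows, and genes whose coding parts lie 20 bp or more apart were taken to have an intron. Sequences shown are the reference's and not those of the strains. The pipeline was tested on simulated data, and Python 3.11.15 was used for the tables and plots. Members and gene lists, 51 in all, were chosen with earlier results of these data known.

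Genes were named by a rule: HSH49 and the U2 snRNP list, 5 strain markers, the 10 largest rises and 10 largest falls among called open reading frames with a mean of at least 10 TPM in the higher group and no overlap between replicates, up to 4 called members of each list, and the 5 largest rises and 5 largest falls of the interaction and of the comparisons with nam8D and mud1D. Genes without a symbol, and some that the rule allows, are left unnamed. The alternatives were other pseudocounts, filters, scalings and model fits, a replicate block and leaving out each library. Replicate numbers were not taken as pairs: deviations of same-numbered libraries from their group means correlated at 0.0038, -0.137 and -0.2733 across genes.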

Additional observations from a re-analysis of the deposited data

Results flagged for a closer look

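Genes whose difference between hsh49::Q24P and WT was other in starvation than in log phase are given here, tested by the interaction term in limma. There were 724 such genes, 216 with a positive and 508 with a negative term. The largest positive terms among genes named by the rule were 4.37 on the log2 scale for PDC5, 3.27 for YJL213W, 3.21 for HXT3, 3.14 for YOR316C-A and 2.86 for HXT4. The largest negative terms were -6.16 for DPA10, -6.10 for LEU2, -5.41 for GRE1, -4.13 for YDL218W and -4.08 for GND2. The term of LEU2 rests on the 63.03 to 465.5 TPM of LEU2 RNA in the hsh49::Q24P log libraries, since WT was at 3979 TPM or more in both phases.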

How the results depend on the processing

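Of the 732 genes called between hsh49::Q24P and WT in starvation, the count was 472 with a pseudocount of 5 and 1209 with spike-in scaling, and between 635 and 839 when 1 library was left out. The interaction count of 724 was 2623 with spike-in scaling and between 650 and 841 with 1 library left out. The count of 77 against nam8D was 155 with library weights, 46 in a fit of the 12 starvation libraries and 10 in a fit of the groups compared alone; with 1 library left out it lay between 42 (without nam8D replicate 1) and 181 (without hsh49::Q24P replicate 2). The count of 17 against mud1D was 7 with a pseudocount of 5, 9 with a minimum of 10 TPM, 10 with spike-in scaling, 85 with library weights, 11 in the 12 starvation libraries and 6 in the groups compared alone; with 1 library left out it lay between 10 (without hsh49::Q24P replicate 1) and 52 (without hsh49::Q24P replicate 2). The cause of these shifts was not tested. With a replicate block the counts were 732 against WT, 722 for the interaction, 75 against nam8D and 17 against mud1D, and no named gene changed its call. Sign changes were seen only in uncalled U2 snRNP genes. With spike-in scaling HSH49 stood at -0.15, HSH155 at -0.25, CUS1 at -0.030, YSF3 at -0.40, RDS3 at -0.22 and MSL1 at -0.24. PRP9 stood at 0.0089 with median centring and 0.017 with quantile normalization, and IST3 at 0.053 and 0.028. With 1 library left out YSF3 ranged from -0.0065 to 0.050, LEA1 from -0.40 to 0.046 and IST3 from -0.17 to 0.070. Over all alternatives the named genes gave 3624 values with the same call, 113 that lost it and 13 with another sign. TPM without counts leave the depth behind low genes unknown.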
